A study of Mus musculus with 8 samples.

Results

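The genes of glycolysis and of the transcriptional response to low oxygen were followed as a set of 38 named genes in cultured mouse Th17 cells, which are helper T cells known for secreting interleukin 17. The set was chosen by gene symbol, and all 38 symbols were found among the 24426 named genes of the table of estimated counts. All 38 also passed the filter on low counts and were among the 11851 genes tested. Polyadenylated RNA had been sequenced from 8 libraries in 4 groups of 2, all from C57BL/6J T cells cultured in the condition the labels call Th17(23) and harvested on day 4 to 5. Transduction was with miR-96 or with the control vector, and the cells labelled not transduced were miR-183C+/+ (wild type) or miR-183C-/- (knockout), miR-183C being the miR-183/96/182 cluster of microRNAs. The protocol describes a sort for GFP-positive cells and makes no exception for the genotype groups; the age and sex of the animals, the cell type in which the cluster was deleted and the promoter of the vector are not stated in the sources used. The labels do not say whether duplicates were separate animals or cultures; the p-values rest on the spread between duplicate libraries, which may be technical.

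Glycolysis breaks glucose down to pyruvate in the cytosol, and dividing T cells send much of that pyruvate to lactate. The transcription factor HIF-1, a dimer of an oxygen-regulated alpha subunit (Hif1a) and a stable partner (Arnt), switches on nearly every step of this path together with genes for mitophagy, angiogenesis and collagen modification. Prolyl hydroxylases of the Egln family mark the alpha subunit for destruction when oxygen is present, so much of its control lies in the protein, which RNA levels do not show. In Th17 cells HIF-1 and glycolysis are known to favour the interleukin 17 program over the regulatory T cell program.

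The perturbed molecules are shown because the contrasts turn on them. Their mature sequences are from RefSeq (GRCm38.p6, chromosome 6, minus strand), with the seed, bases 2 to 8, in capitals.
mmu-miR-183-5p: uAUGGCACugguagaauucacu
mmu-miR-96-5p: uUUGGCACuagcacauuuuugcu
mmu-miR-182-5p: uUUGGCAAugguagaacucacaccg
No seed is shared whole among the 3. The gene Mir96 held 7 and 2 counts in the miR-96 vector libraries and 0 in the other 6, while Mir182 and Mir183 held 0 counts in all 8. A library selected for polyadenylated RNA hardly samples microRNAs, so these lines give no check of the knockout labels.

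Library totals ranged from 7142429 to 12452659 estimated counts. Levels are CPM, each count divided by its library's TMM-scaled size and put on a common scale, and fold changes are log2 values with their standard error (SE) and p-values adjusted by Benjamini-Hochberg over the 11851 genes, from the quasi-likelihood F test of edgeR with n = 2 libraries per group. Genes with an adjusted p below 0.05 were called. Knockout library 1 stood apart in the form of its values: 55.6% of its detected genes, and 36 of the 38 members, had estimates that were not whole numbers to within 0.02, against 6.39% to 7.41% of genes and 6 to 7 members in the other libraries. The summed markers of T cells lay between 2003 and 2469 CPM in all 8 libraries, and the defining genes Cd3e and Cd4 were present in each. Of the 6 tested T cell markers, 1 was called higher and 1 lower in the knockout (against 6.63% and 6.40% of all genes tested). Erythroid genes summed to at most 1.78 CPM; markers of other immune cells that differed between groups are given further on.

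In the knockout 11 of the 38 genes rose in edgeR, and none was called lower. Those that rose included a glucose transporter, 4 glycolytic enzymes, the lactate exporter and the kinase that keeps pyruvate out of mitochondria. The test thus called 11 members higher (28.9%, against a background of 6.63% of all genes tested) and 0 lower (background 6.40%). At an unadjusted p under 0.05, 28 members were higher and 2 were lower in edgeR, against 34.4% of all genes in either direction. DESeq2 called 20 members higher and 1, Slc16a1, lower, and 1097 and 1070 genes in all. The median log2 fold change of the members was 0.70, with a range from -0.55 to 2.89, while the median over all genes was -0.01, with quartiles at -0.36 and 0.44. In 33 members (86.8%) both knockout libraries lay above both wild-type libraries, which was true of 34.9% of all genes, and in 3 members (7.89%), Hif1a, Hk2 and Slc16a1, both knockout libraries lay below, against 34.9% of all genes; Pfkfb3 and Kdm3a were the members whose libraries overlapped. A further 12 members had an adjusted p between 0.05 and 0.1, which brings those under 0.1 to 23 of 38, against 26.2% of all genes. These calls depended on single libraries, since edgeR called no member without knockout library 1, wild-type library 1 or wild-type library 2. Nearly all calls of the contrast went with them, since 0, 20 and 1 of the 11851 genes were called in the same fits. With any other library left out, edgeR called more members than in the full fit. The count over all genes also rose without either control vector library or miR-96 library 1. The median stayed between 0.52 and 0.82 when any library was left out. In bulk RNA, a change in the share of cells of a type and a change in RNA per cell cannot be told apart.

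**Figure D1:**
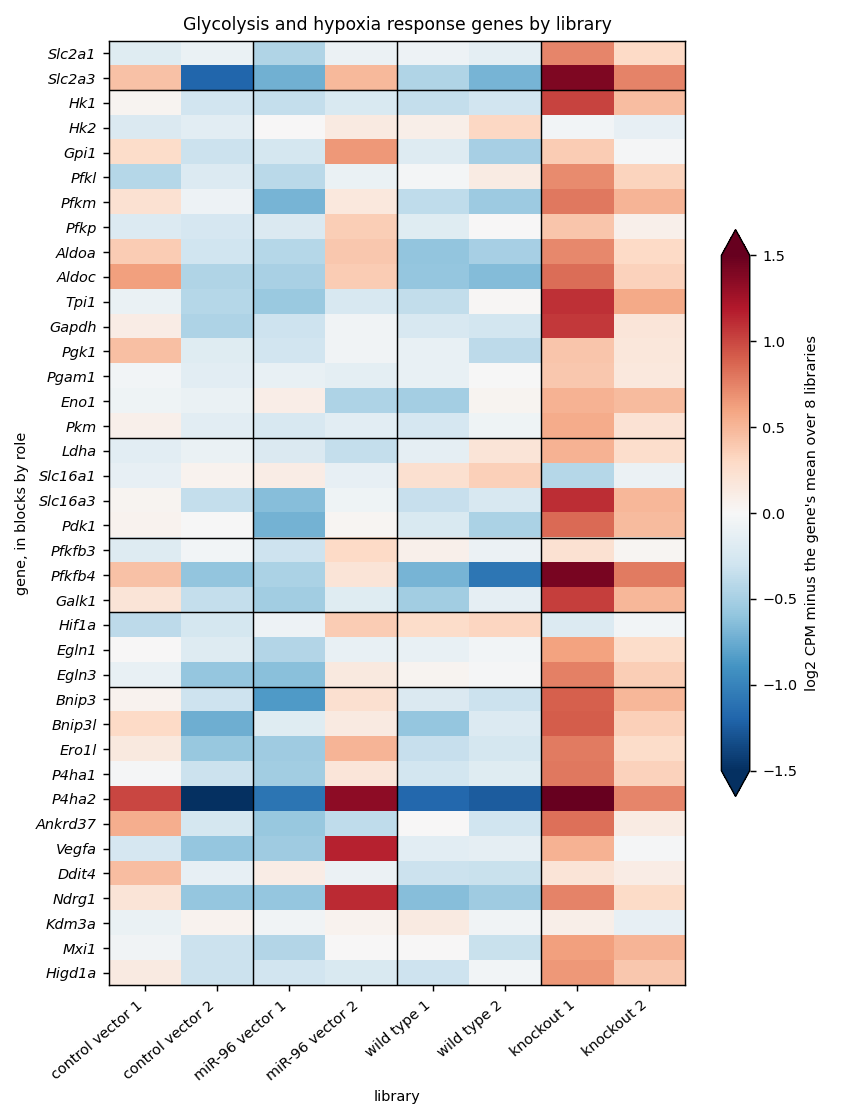
Heat map of log2 CPM minus each gene's mean over the 8 libraries, with 1 row per gene in blocks by role and 1 column per library; the colour scale ends at 1.5 in either direction. The knockout columns are red in most rows, knockout library 1 (median 0.73) more than knockout library 2 (median 0.30), and the Hif1a, Hk2 and Slc16a1 rows run the other way.

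Glucose enters the cell through the facilitated transporters encoded by Slc2a1 and Slc2a3. Slc2a1 (chr4:119108711-119137983, plus strand) stood at 146 and 140 CPM in wild type and at 257 and 189.7 CPM in the knockout. The wild-type libraries lay together and both knockout libraries above them, a rise of 0.64 (SE 0.181, adjusted p = 0.0495) on the log2 scale. Slc2a3, the high-affinity neuronal-type transporter, had 175 and 148 CPM in wild type and 636 and 401 CPM in the knockout. Its groups did not overlap and its fold was larger, 1.69 (SE 0.527, adjusted p = 0.0635) and did not pass the test. Its duplicates differed widely, with 326 and 105 CPM in the control vector libraries.

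Of the 14 glycolytic enzymes, 4 rose in the knockout (Hk1, Pfkm, Aldoa and Tpi1), 13 had a positive fold change, and the median was 0.63 log2 units. Hk1 (chr10:62268855-62379908, minus strand), which phosphorylates glucose and holds it in the cell, had 179.6 and 188 CPM in wild type and 462 and 317 CPM in the knockout. It rose by 1.08 (SE 0.196, adjusted p = 0.0254), the smallest p among the members, and both knockout libraries were above all 6 others. Hk2, the other hexokinase of these cells, went the other way without passing the test: 198 and 233 CPM in wild type and 182 and 171 CPM in the knockout, a log2 difference of -0.29 (SE 0.135, adjusted p = 0.165).

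Phosphofructokinase commits the sugar to glycolysis, and its muscle-type gene Pfkm (chr15:98092589-98132451, plus strand) was the isoform that rose. It was the least abundant of the 3, at 16.1 and 14.4 CPM in wild type and 36.4 and 29.9 CPM in the knockout, 1.12 (SE 0.284, adjusted p = 0.0394). The liver-type Pfkl and the platelet-type Pfkp had log2 fold changes of 0.49 (SE 0.176, adjusted p = 0.0888) and 0.34 (SE 0.203, adjusted p = 0.267) and did not pass. Aldoa (chr7:126795234-126800751, minus strand), which splits the sugar into its triose phosphates, had 812 and 867 CPM in wild type and 2023 and 1504 CPM in the knockout. It rose by 1.07 (SE 0.303, adjusted p = 0.0498), only just inside the threshold. Of its control vector libraries, at 1596 and 992 CPM, library 1 reached the knockout range. So did library 2 of its miR-96 libraries, at 908 and 1623 CPM. Tpi1 (chr6:124810586-124814296, minus strand), which interconverts the trioses, had 525 and 689 CPM in wild type and 1456 and 1008 CPM in the knockout, a rise of 1.02 (SE 0.225, adjusted p = 0.0309).

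The enzymes of the later steps were also higher in both knockout libraries, but edgeR called none of them; DESeq2 called Gapdh, Eno1 and Pkm, and Aldoc of the earlier steps (adjusted p from 0.00297 to 0.0129). Gapdh, which oxidises glyceraldehyde phosphate, had 1010 and 990.1 CPM in wild type and 2493 and 1351 CPM in the knockout, 0.94 (SE 0.284, adjusted p = 0.0582). Pkm, pyruvate kinase, had 2588 and 2939 CPM in wild type and 4519 and 3571 CPM in the knockout. Its groups were well apart, at 0.55 (SE 0.162, adjusted p = 0.0555). The remaining enzymes Gpi1, Aldoc, Pgk1, Pgam1 and Eno1 had log2 fold changes from 0.34 (Pgam1) to 1.23 (Aldoc), with adjusted p from 0.0605 to 0.245. Gapdh is a common reference gene, and its level here differed by 1.92-fold between the genotype groups.

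Pyruvate is turned to lactate by lactate dehydrogenase and leaves through monocarboxylate transporters, or enters mitochondria unless Pdk1 blocks pyruvate dehydrogenase. Slc16a3 (chr11:120948480-120960868, plus strand), the lactate exporter of glycolytic cells, had 101 and 109 CPM in wild type and 276 and 182 CPM in the knockout. It rose by 1.12 (SE 0.252, adjusted p = 0.0317). The transporter Slc16a1 had 207 and 225 CPM in wild type and 130.1 and 166 CPM in the knockout, the reverse order with no overlap. Its log2 difference was -0.55 (SE 0.162, adjusted p = 0.0555) in edgeR, and DESeq2 called it lower (adjusted p = 0.0257). Pdk1 (chr2:71873224-71903858, plus strand) stood at 87.98 and 73.7 CPM in wild type and 186 and 143 CPM in the knockout. It rose by 1.02 (SE 0.238, adjusted p = 0.0327). Ldha, the subunit of lactate dehydrogenase that favours lactate, had 1495 and 1865 CPM against 2343 and 1964 CPM, a difference of 0.36 (SE 0.157, adjusted p = 0.144) that did not pass.

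Of the 3 sugar kinases and flux regulators, 2 rose. Pfkfb4 (chr9:108991778-109032228, plus strand), a bifunctional enzyme that sets the level of an activator of phosphofructokinase, had 4.75 and 3.57 CPM in wild type and 21.4 and 13.6 CPM in the knockout, the largest rise among the called members at 2.07 (SE 0.436, adjusted p = 0.0292). Behind those values lay 158 and 114 counts in the knockout libraries. Galk1 (chr11:116008457-116012719, minus strand), which brings galactose into the same path, had 67.1 and 87.8 CPM in wild type and 199 and 137 CPM in the knockout, 1.11 (SE 0.250, adjusted p = 0.0317). Pfkfb3, the family member best known from activated T cells and tumours, had 67.6 and 60.2 CPM against 75.1 and 65.03 CPM. Its libraries overlapped and its difference was 0.13 (SE 0.204, adjusted p = 0.676).

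**Figure D2:**
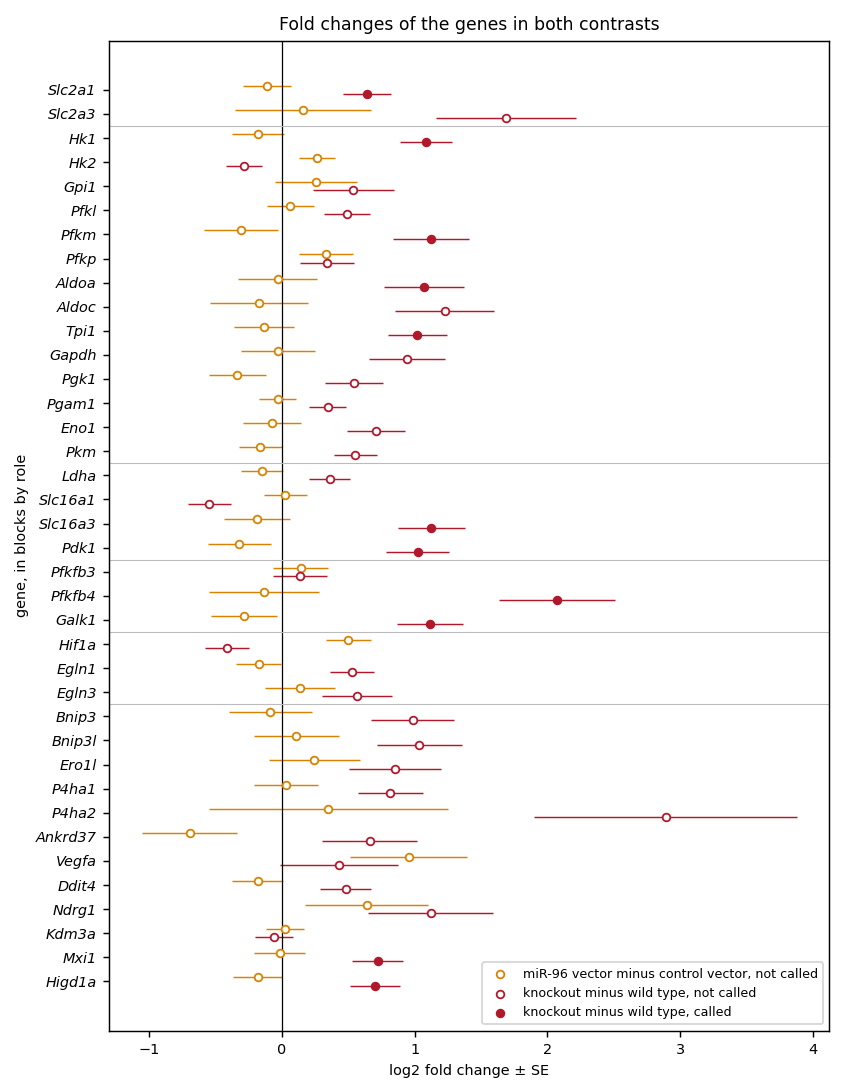
Log2 fold change of each gene with its SE in both contrasts, with n = 2 libraries per group; filled points are called at an adjusted p under 0.05. The knockout points lie to the right of 0 for 34 of 38 genes, with 11 filled, and the miR-96 points lie on both sides of 0 with none filled.

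None of the 3 genes of HIF and oxygen sensing was called in the knockout by edgeR, and DESeq2 called Egln1 higher (adjusted p = 0.0402); at an unadjusted p in edgeR under 0.05, Hif1a was lower and Egln1 higher. Hif1a (chr12:73901375-73947530, plus strand) had 1685 and 1740 CPM in wild type and 1211 and 1357 CPM in the knockout. Both knockout libraries lay below both wild-type libraries, with a log2 difference of -0.42 (SE 0.169, adjusted p = 0.121), a direction opposite to that of most genes the protein is known to drive. Egln1, the main hydroxylase of the alpha subunit, had 130.4 and 138 CPM against 215 and 171 CPM, a difference of 0.53 (SE 0.168, adjusted p = 0.0666). Egln3, a hydroxylase that is itself induced by low oxygen, had 580.4 and 556 CPM against 949.9 and 728 CPM, 0.56 (SE 0.262, adjusted p = 0.162).

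Of the 12 other genes of the hypoxia response, 2 rose in the knockout and 11 had a positive fold change. Mxi1 (chr19:53310518-53375810, plus strand), which competes with MYC for its partner MAX, had 100.3 and 79.1 CPM in wild type and 153 and 142 CPM in the knockout, 0.72 (SE 0.192, adjusted p = 0.0434). Higd1a (chr9:121848563-121858362, minus strand), a small protein of the inner mitochondrial membrane, had 58.6 and 70.7 CPM against 114 and 96.1 CPM, a rise of 0.70 (SE 0.186, adjusted p = 0.0423). Both genes had their knockout libraries above all wild-type and vector libraries. The largest fold of the whole set belonged to P4ha2, a subunit of the collagen prolyl hydroxylase, with 4.51 and 4.26 CPM in wild type and 47.9 and 17.4 CPM in the knockout. Its difference of 2.89 (SE 0.988, adjusted p = 0.0796) did not pass, and its duplicates were as far apart as its groups, with 21.1 and 2.997 CPM in the control vector libraries. Its partner gene P4ha1 had a log2 difference of 0.82 (SE 0.243, adjusted p = 0.0567), the mitophagy receptors Bnip3 and Bnip3l had 0.98 (SE 0.312, adjusted p = 0.0654) and 1.03 (SE 0.323, adjusted p = 0.0635), and Kdm3a, a histone demethylase that needs oxygen, had -0.06 (SE 0.144, adjusted p = 0.795).

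**Figure D3:**
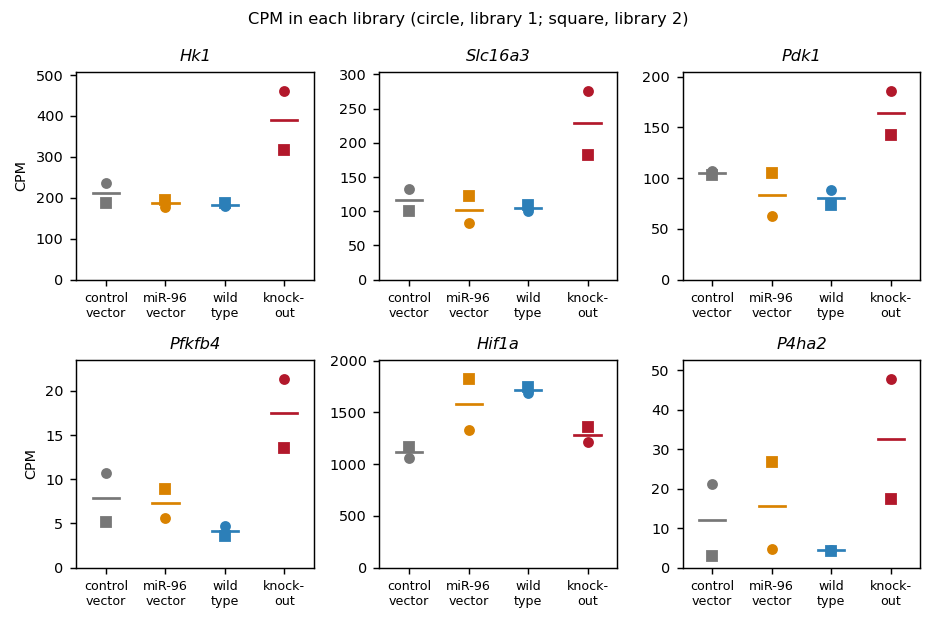
CPM of 6 genes in each library, with a bar at the mean of the 2 libraries of a group. Hk1, Slc16a3, Pdk1 and Pfkfb4 lie highest in the knockout libraries, Hif1a lies lower in the knockout than in wild type and lower in the control vector than with miR-96, and the P4ha2 duplicates of 3 groups lie far apart.

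With the miR-96 vector, 0 of 38 members were called, against a background of 0.110% of all genes in either direction. At an unadjusted p under 0.05 there was 1 member, Hif1a, against 8.70% of all genes, and DESeq2 called 0. The members' median log2 fold change was -0.03, from -0.70 to 0.95, beside a median of 0.01 over all genes, with 16 members positive and 22 negative. Libraries did not overlap in 2 members that were higher, Hif1a and Hk2 (5.26%, against 18.3% of all genes), and in 3 that were lower, Ankrd37, Ldha and Pkm (7.89%, against 17.6%). With a background of 13 called genes, the contrast had few calls of any kind.

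The member with the smallest p was Hif1a, with 1060 and 1167 CPM in the control and 1328 and 1824 CPM with miR-96. Its groups did not overlap and differed by 0.50 (SE 0.169, adjusted p = 0.476). Hk2 had 161 and 167 CPM in the control and 188 and 205 CPM with miR-96, 0.26 (SE 0.135, adjusted p = 0.619). Vegfa, the endothelial growth factor, had 43.4 and 34.6 CPM in the control and 35.9 and 116 CPM with miR-96, a difference of 0.95 (SE 0.441, adjusted p = 0.584) in which only miR-96 library 2 stood above the controls. Ankrd37, an ankyrin repeat protein induced by hypoxia, had 13.2 and 7.44 CPM in the control and 5.96 and 6.84 CPM with miR-96, -0.70 (SE 0.359, adjusted p = 0.619). Without miR-96 library 1, which leaves library 2 to stand for the group, Vegfa alone passed (log2 1.58, adjusted p = 0.0389); without library 2 its value was -0.12.

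The transporter and the main enzymes of the pathway did not pass the test with miR-96 either. Slc2a1 had 136 and 144 CPM in the control and 113 and 146 CPM with miR-96, -0.11 (SE 0.181, adjusted p = 0.908). Pkm had 3245 and 2761 CPM against 2605 and 2757 CPM and Ldha 1461 and 1522 CPM against 1403 and 1282 CPM, with log2 differences of -0.16 (SE 0.162, adjusted p = 0.822) and -0.15 (SE 0.157, adjusted p = 0.833). Both were lower in each miR-96 library than in either control, though by little. Pdk1 had 107 and 103 CPM against 62.9 and 105 CPM, Egln3 522 and 377 CPM against 364 and 625 CPM and Pfkfb3 55.9 and 62.1 CPM against 51.6 and 78.6 CPM. Their log2 differences were -0.32 (SE 0.237, adjusted p = 0.741), 0.14 (SE 0.261, adjusted p = 0.927) and 0.14 (SE 0.204, adjusted p = 0.9). Pfkp had 331 and 318 CPM against 326 and 489.5 CPM and Pgk1 2703 and 1753 CPM against 1619 and 1908 CPM, differences of 0.33 (SE 0.203, adjusted p = 0.688) and -0.34 (SE 0.217, adjusted p = 0.707) with overlapping libraries.

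Duplicates of the vector groups and of the knockout differed across the set in a shared way. In the control vector group, 30 of 38 members were higher in library 1 than in library 2, with a median gap (library 1 minus library 2) of 0.331 log2 units. In the miR-96 group, 33 were higher in library 2, with a median gap of -0.405, and in the knockout 36 were higher in library 1, with a median gap of 0.39. The median gap over all genes was between -0.01 and 0.01 in the 4 groups, and in wild type 17 members were higher in library 1 and 21 in library 2. Ndrg1, a gene induced by hypoxia and stress, shows the spread, with 75.3 and 245 CPM in the miR-96 libraries. Knockout library 2, the lower of its pair, had 33 and 34 members above wild-type libraries 1 and 2, with median log2 differences of 0.48 and 0.46. For knockout library 1 these were 34 and 35 members, 0.89 and 0.92. The same counts over all genes were not taken, and the members are not replicates of a library.

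The contrasts share no library, so their difference could be tested, as the miR-96 effect minus the knockout effect. It called 4 members: Hif1a higher (1 of 38, 2.63%, background 4.58%) and Hk1, Pdk1 and Galk1 lower (3 of 38, 7.89%, background 4.45%). For Hif1a the difference was 0.92 (SE 0.240, adjusted p = 0.0479), with its RNA higher with added miR-96 and lower without the cluster, neither contrast passing alone. This call was lost with RLE factors, with upper-quartile factors and with a block of duplicate numbers. It was also lost without either control vector library, miR-96 library 2, knockout library 1 or either wild-type library. For Hk1 it was -1.26 (SE 0.276, adjusted p = 0.0306), for Pdk1 -1.35 (SE 0.336, adjusted p = 0.0428) and for Galk1 -1.40 (SE 0.352, adjusted p = 0.043), each with a rise in the knockout and a small negative value with miR-96. Both shares lie near their backgrounds. The members' median in this contrast was -0.77, against 0.00302 over all genes, with 32 of 38 negative. In edgeR 22 were lower and 3 higher at an unadjusted p under 0.05 (29.8% of all genes in either direction). DESeq2 called 13 lower and 1 higher, and its count over all genes in this contrast was not taken. Leaving out control vector library 1, knockout library 1 or either wild-type library left 0 calls, without miR-96 library 1 there was 1, and without control vector library 2 or knockout library 2 there were 9 and 10.

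Genes around the set were read from lists of related functions. Of 26 tested genes of other glycolysis and sugar entry, 7 rose in the knockout and 1 fell (26.9% and 3.85%, against backgrounds of 6.63% and 6.40%), with a median of 0.54. Ldhb, the other subunit of lactate dehydrogenase, had 16.7 and 10.9 CPM in wild type and 51.7 and 43.6 CPM in the knockout, 1.79 (SE 0.226, adjusted p = 0.0246). Pgm2, a phosphoglucomutase, rose by 1.58 (SE 0.342, adjusted p = 0.0303), and Tigar, a phosphatase that lowers glycolytic flux, fell with 45.6 and 52.9 CPM against 19.2 and 29.9 CPM, -1.002 (SE 0.223, adjusted p = 0.0315). The branches to pentose phosphates and serine had 0 of 20 called, with 7 at an unadjusted p under 0.05 in edgeR and 1 called lower by DESeq2. Of 18 genes listed around the entry of pyruvate into mitochondria, 3 rose and 0 fell (16.7% and 0%, against 6.63% and 6.40%). The list as a whole did not shift, with a median of -0.005 and 9 genes positive. The 3 were the pyruvate carboxylase Pcx, up by 1.97 (SE 0.371, adjusted p = 0.0258), the mitochondrial carboxykinase Pck2 by 2.11 (SE 0.536, adjusted p = 0.0394) and the malic enzyme Me2 by 0.96 (SE 0.180, adjusted p = 0.0258). None of them is a part of the pyruvate dehydrogenase complex.

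Of 24 tested genes of HIF regulation, none rose and 2 fell (8.33%, near the background of 6.40%), with a median of -0.16. Myc, a transcription factor that drives many glycolytic genes in activated T cells, had 464 and 531 CPM in wild type and 325 and 376 CPM in the knockout, -0.50 (SE 0.137, adjusted p = 0.0454). Arnt2, a little-expressed relative of the HIF partner, was low throughout, at 1.95 and 2.97 CPM against 0.541 and 0.238 CPM. Of 45 other hypoxia-induced genes, 7 rose and 2 fell (15.6% and 4.44%), with a median of 0.48. Among them the mitochondrial protease Lonp1 had 104 and 115 CPM in wild type and 277 and 194 CPM in the knockout, 1.11 (SE 0.189, adjusted p = 0.0246), and Gys1, Gbe1, Zfp395, Kdm4b, Ccng2 and Sap30 were called higher too, while Rbpj and Ern1 were called lower. With miR-96, 0 genes of any of these lists were called by edgeR, and 0 to 5 genes per list had an unadjusted p under 0.05; DESeq2 called 1 other hypoxia-induced gene higher and 1 gene of pyruvate entry lower.

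Proliferation genes moved beside the set, though not in every library. In the knockout 12 of 25 rose (48%, against the background of 6.63%), with a median of 0.91 and 18 of the 25 positive. The listed Mcm genes, Pcna, Rrm2 and Tyms were not called. The kinases Plk1 and Aurkb and the cyclin Ccnb2 had the smallest p. Their log2 rises were 1.83 (SE 0.353, adjusted p = 0.0261), 1.69 (SE 0.311, adjusted p = 0.0258) and 2.43 (SE 0.324, adjusted p = 0.0246). The median deviation of these 25 genes from their 8-library means was 0.62 and 0.37 in the knockout libraries and -0.40 and -0.44 in wild type. In control vector library 2 it was 0.50 while that of the members was -0.30, and in miR-96 library 2 it was -0.98 while that of the members was 0.04. With miR-96, edgeR called 0 of the 25 and the median was -0.83, with 17 genes below an unadjusted p of 0.05, and DESeq2 called 6 lower. The part of proliferation in the knockout difference was not tested.

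**Figure D4:**
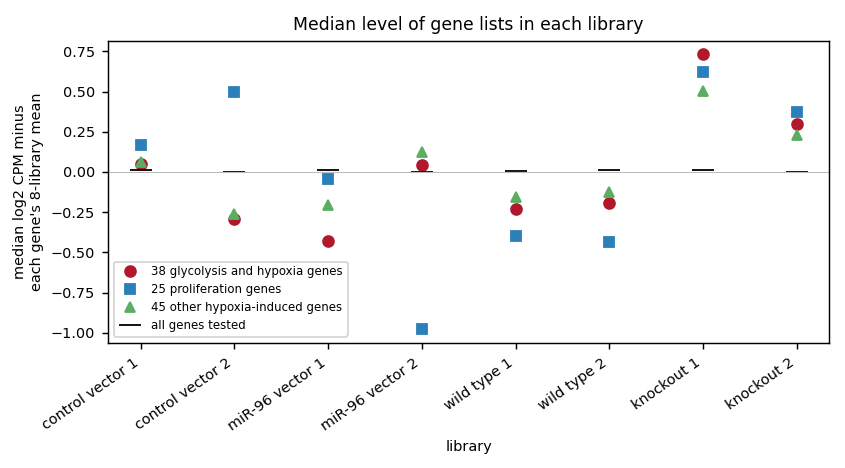
Median over each gene list of log2 CPM minus the gene's 8-library mean, by library. The 38 members and the proliferation genes are both high in the knockout libraries, and they part in control vector library 2 (-0.30 and 0.50) and miR-96 library 2 (0.04 and -0.98).

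Markers of cell types differed between the groups as well, in both contrasts. The 8 Th17 markers summed to 825 and 1279 CPM in wild type and to 318 and 358 CPM in the knockout, with 4 of 8 called lower, and Il17a itself had 165 and 261 CPM against 14.5 and 24.4 CPM. The 3 Th1 markers summed to 196 and 384 CPM against 38.7 and 60.8 CPM, with 2 called lower, and the B and plasma cell markers to 75.8 and 156 CPM against 17.04 and 18.2 CPM, with 5 of 7 tested called lower. The CD8 T and NK cell markers summed to 39.6 and 65.01 CPM against 10.6 and 14.5 CPM, with 2 of 5 tested called lower and Ncr1 and Klrb1c at 0 in all 8 libraries. Of the 4 regulatory T markers 2 were called lower, among them Foxp3 with 10.6 and 22.8 CPM against 0.406 and 0 CPM. These counts stand against 6.40% of all genes called lower. Myeloid markers summed to between 6.86 and 25.9 CPM over the 8 libraries, with none called in the knockout.

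In the vector groups, several of the same lists summed lower in the control than with miR-96, though few of their genes were called. The Th1 marker Ifng had 0.392 and 6.48 CPM in the control and 112 and 119.8 CPM with miR-96. Cxcr3 of the same list overlapped, at 16.5 and 17.4 CPM against 16.8 and 16.3 CPM, and 0 of the 3 Th1 markers were called. The B and plasma cell markers summed to 28.7 and 17.5 CPM against 78.7 and 91.8 CPM, with 2 of 7 tested called higher. Of the CD8 T and NK cell markers, 0 of 5 tested were called. Foxp3 had 0.157 and 0.29 CPM in the control and 10.3 and 7.59 CPM with miR-96. Il2ra of the same list overlapped, at 1377 and 1601 CPM against 1685 and 1474 CPM, and 1 of the 4 regulatory T markers was called higher. The Th17 markers summed to 751 and 504.5 CPM against 1116 and 1516 CPM, with 0 of 8 called.

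The libraries also differed in sex-linked genes. Xist, which is transcribed in female cells, had 1220 and 1480 CPM in the control, 1082 and 166 CPM with miR-96, 1217 and 389.7 CPM in wild type and 0 and 144 CPM in the knockout. The Y-linked Eif2s3y had 0 and 0.0967 CPM in the control, 38.4 and 79.7 CPM with miR-96, 36.1 and 97.02 CPM in wild type and 106 and 97.7 CPM in the knockout. The part of these marker and sex-linked differences in the members' values, in either contrast, was not tested.

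Levels between genes were compared per length of exon, taken as all annotated exons of a gene merged. That length can exceed the transcript expressed in these cells, so the order is a rough one. On that scale Pgk1 had the highest mean over the 8 libraries (903 CPM per kb), followed by Pkm (624.5), Ldha (504), Aldoa (443) and Pgam1 (316), and the lowest were P4ha2 (2.60) and Pfkfb4 (1.89). Hif1a ranked 8 of 38, at 241 CPM per kb. Eno1 ranked 19, at 39.7 CPM per kb, without the reads assigned to its near-identical copy Eno1b. The called members lay between Aldoa and Pfkfb4 on this scale, and the 3 members highest on it were not among them.

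Sites for the 3 seeds were looked up in the longest 3′ UTR of each gene, from GENCODE M21 on GRCm38. A site for any of them was found in 13 of 38 members (34.2%) and in 29.2% of the 11397 tested genes with a UTR, and 5 of the 11 members that rose had one. Their sites are shown with the match in capitals, on the transcript strand.
Slc2a1 site for miR-182: cagacacttgccttctTTGCCAAgctaat
Tpi1 site for miR-96: agtcccctcccccacgGTGCCAAagcccc
Slc16a3 site for miR-182: atcctgggagtctaatTTGCCAAtctcac
Pfkfb4 site for miR-183: tgcccctgagaagtcaGTGCCATtattcc
Higd1a site for miR-182: ttcttgccagcttgatTTGCCAAattgtt
The members with a site for any of the 3 had a median log2 fold change of 1.02 in the knockout and -0.14 with miR-96, and those without one 0.55 and -0.02. Only miR-96 was added by the vector, and 3 of 38 members had a site for it (7.89%, against 10.5% of genes). With miR-96 the median of those 3 was -0.14, and that of the members without such a site was -0.03. Medians by site over all genes were not taken. A match is not shown to be bound, and Hk1, Pdk1, Galk1, Aldoa, Pfkm and Mxi1 rose without one in this UTR.

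The core of the HIF binding motif was searched in promoter windows from 250 bases before to 50 after the start site (RefSeq, GRCm38.p6) as ACGTG or GCGTG on both strands; the palindrome CACGTG counts on both and is also the site of MYC and its partners. At least 1 core was found in 33 of the 35 members with a window (94.3%) and in 68.4% of the 9544 tested genes with one. A gene counted if any of its windows held a core, and some genes have several. Counted by window, the shares were 79.2% of the members' 53 windows and 62.4% of the 12157 windows of tested genes. The members' windows were richer in G and C, at a median of 64.7% against 60.8%; the part of base composition in the share was not tested. The promoters of 4 members that rose are shown, with the matches in capitals (CACGC is GCGTG read on the other strand). Pdk1 has 2 windows, of which the one with matches is shown and the other had none.
Slc2a1 promoter, chr4:119108495-119108794, plus strand: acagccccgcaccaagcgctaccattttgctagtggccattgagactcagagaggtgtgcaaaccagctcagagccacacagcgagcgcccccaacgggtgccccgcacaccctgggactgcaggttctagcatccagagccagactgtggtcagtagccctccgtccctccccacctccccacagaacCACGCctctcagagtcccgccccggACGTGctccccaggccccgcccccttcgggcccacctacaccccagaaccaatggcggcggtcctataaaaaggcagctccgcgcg
Slc16a3 promoter, chr11:120948817-120949116, plus strand: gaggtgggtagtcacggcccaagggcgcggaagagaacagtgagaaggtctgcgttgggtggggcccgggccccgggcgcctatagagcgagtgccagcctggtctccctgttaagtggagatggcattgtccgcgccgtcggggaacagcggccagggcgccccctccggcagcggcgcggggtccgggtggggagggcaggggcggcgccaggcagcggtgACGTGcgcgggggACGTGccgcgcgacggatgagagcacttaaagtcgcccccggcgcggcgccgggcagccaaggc
Galk1 promoter, chr11:116012670-116012969, minus strand: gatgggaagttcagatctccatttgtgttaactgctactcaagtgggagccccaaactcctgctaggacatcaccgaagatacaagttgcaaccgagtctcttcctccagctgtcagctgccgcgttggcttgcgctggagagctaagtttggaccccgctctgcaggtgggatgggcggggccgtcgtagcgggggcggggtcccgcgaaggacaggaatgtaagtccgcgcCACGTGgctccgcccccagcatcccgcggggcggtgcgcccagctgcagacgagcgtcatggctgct
Pdk1 promoter, chr2:71872974-71873273, plus strand: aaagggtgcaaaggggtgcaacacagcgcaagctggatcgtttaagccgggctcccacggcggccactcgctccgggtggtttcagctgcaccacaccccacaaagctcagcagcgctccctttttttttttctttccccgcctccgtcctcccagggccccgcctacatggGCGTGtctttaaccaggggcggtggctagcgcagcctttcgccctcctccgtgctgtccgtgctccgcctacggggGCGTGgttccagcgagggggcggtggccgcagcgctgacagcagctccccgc
In Slc2a1 the matches begin 61 and 36 bases before the start, in Slc16a3 27 and 14, and in Galk1 the pair overlaps in a CACGTG 17 bases before it. Of the 11 members that rose, 10 had a core and Tpi1 had none. The members that did not rise had cores as widely, all of those with a window except Gpi1. A match is a description of the letters in the window and not a site in these cells.

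**Figure D5:**
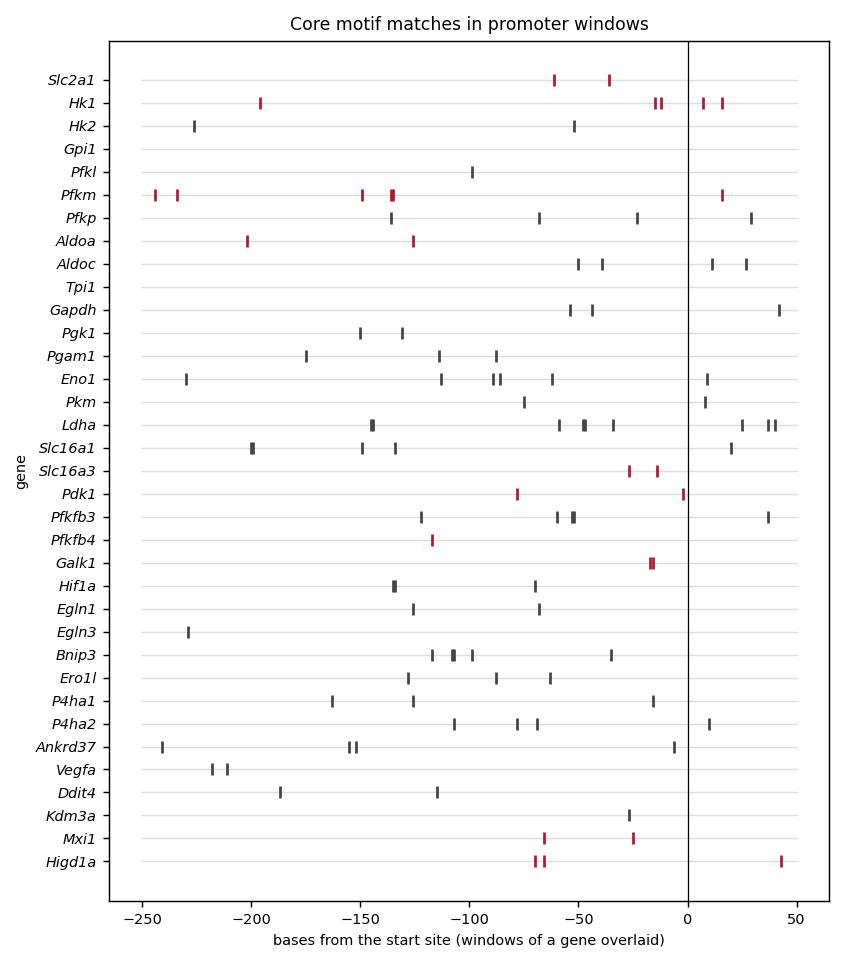
Positions of ACGTG or GCGTG on either strand in the promoter windows of 35 members, by distance in bases from the start site, with members that rose in the knockout in red. Matches are found in 33 rows, and the Gpi1 and Tpi1 rows are empty.

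Counting may have split some of these genes. Of the 38 members, 11 have another annotated gene whose transcript is near-identical (at least 95% over 200 bases) and 15 overlap the exons of another gene; 18 have neither. Gapdh has 90 such copies, and the strand setting of the counting is not stated. Among the 11 that rose, 2 have a near-identical copy and 7 an overlapping gene, and Slc16a3, Pdk1, Pfkfb4 and Galk1 have neither. Eno1 is the least certain, since most reads were assigned to the near-identical Eno1b. The lines summed gave 1571 and 1632 CPM in wild type and 2655 and 2135 CPM in the knockout, the same order as Eno1 alone.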

How the data were processed

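RNA had been sequenced from 8 libraries in 4 groups of 2. Per the submitters' processing notes, bcl2fastq 2.16.0.10, STAR 2.3.0, Partek, edgeR and the mm10 build were used, with no role given; the annotation and strand setting are not given in the sources used here. The deposited values are estimated counts without normalization; they were rounded to whole numbers, and 27 lines with no symbol (0.229% to 0.243% of counts) were left out. Differential expression was tested with edgeR 4.0.16 in R 4.3.3 over the 8 libraries together, fitting 1 mean per group, with TMM scaling and filterByExpr (minimum count 10, minimum total 15), leaving 4 residual degrees of freedom and a biological coefficient of variation of 0.188. Copies were found with blastn 2.17.0. The members, roles, lists and tests were chosen with earlier results of these data known. The rule gave values in every library to the called members (up to 12 per contrast, otherwise the 6 smallest p) and to Hif1a, Slc2a1, Hk2, Pfkfb3, Pkm, Ldha, Pdk1 and Egln3; other members are named by role. Other settings tried were upper-quartile or RLE factors, no low-count filter, 1 CPM in 2 libraries, DESeq2 1.42.0, the 4 libraries of a contrast alone, a block of duplicate numbers, leaving out Xist and Y-linked genes, or each library, and, added after seeing the data, a crossed block and the whole-number part of the estimates. Counts limit precision most for Pfkfb4, P4ha2 and Ankrd37.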

Additional observations from a re-analysis of the deposited data

How the results depend on the processing

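Without the filter on low counts the test called 29 members in the knockout contrast, 2 in the miR-96 contrast and 24 in their difference, and 3151 and 466 genes in all in the first pair. DESeq2 called 21 members and 2167 genes in the knockout contrast, 14 members in the difference and 117 genes with miR-96. Counts over all genes in the difference were not taken for these other settings. Fitting only the 4 libraries being compared called 25 members and 2641 genes in the knockout and 8 genes with miR-96. Leaving out Xist and Y-linked genes also left 8 genes called with miR-96. The labels do not say whether duplicate numbers pair the samples. Deviations of same-numbered libraries correlated at 0.0953 between the genotype groups and -0.221 between the vector groups, which cannot decide it with 2 libraries per group. The replicate block called 2 members and 477 genes in the knockout and 0 members in the difference, and a block with crossed numbers called 19 genes with miR-96. When single libraries were left out, counts of members ranged from 0 to 18 in the knockout, 0 to 1 with miR-96 and 0 to 10 in the difference, and counts of genes from 0 to 1975 and from 0 to 125 in the first pair. The fits without a miR-96 or control vector library turned the sign of some small miR-96 values: Egln3 ranged from -0.31 to 0.48, Vegfa from -0.12 to 1.58, Pfkfb3 from -0.20 to 0.42, Slc2a1 from -0.31 to 0.065 and Pdk1 from -0.74 to 0.0098. The cause of these shifts was not tested. For the 17 members with every alternative computed in the knockout contrast, no alternative turned the direction, and the median of all members stayed between 0.52 and 0.82; 34 or 35 members were positive. With 2 libraries per group, and 1 in a group that lost a library, the lone library is assumed to vary like the other groups. Depth limits Pfkfb4 and P4ha2 most.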
